A study of Mus musculus with 2 samples.

Results

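The AP-1 and immediate early transcription factors described here are 9 of the 33696 genes counted in 2 single-cell RNA-seq libraries from mouse mammary tumors. The rule lists the genes by name and uses no measured value, but the list was drawn up with earlier results of these data known. They are Fos, Fosb, Fosl1, Fosl2, Jun, Junb, Jund, Atf3 and Egr1, and all 9 had UMIs (unique molecular identifiers, each standing for 1 captured RNA molecule) in every cell class of both libraries. PyMT-M and PyMT-N are sublines of the MMTV-PyMT model, in which the mouse mammary tumor virus promoter drives the polyoma virus middle T antigen in mammary epithelium. The study calls PyMT-M a High-MAC (rich in macrophages) and PyMT-N a Low-MAC model. Both lines were grown in the mammary fat pad of female C57BL/6 mice, whose age the sample labels do not give. Each library pooled cells of 3 tumors that had been digested 1 tumor at a time, freed of cells carrying CD45 or Ter119, enriched on CD31 and CD144 beads and then sorted for both. There is therefore 1 library per condition and no replicate check, no difference was tested, and all intervals are 95% intervals that cover counting error only.

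AP-1 is a pair of basic leucine zipper proteins, usually a Fos family member (Fos, Fosb, Fosl1, Fosl2) bound to a Jun family member (Jun, Junb, Jund). Jun proteins can pair with each other, whereas Fos proteins need a partner of another family. Fos, Fosb, Jun, Junb, Atf3 and Egr1 are immediate early genes, transcribed within minutes of a growth factor, stress or warm tissue digestion, without new protein synthesis. Fosl1, which encodes FRA-1, is known for slower and longer lasting expression under sustained ERK signaling and in mesenchymal-like carcinoma cells. Atf3 encodes a stress-induced partner of Jun proteins, and Egr1 a zinc finger factor that binds DNA on its own.

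The start regions of 3 Fos and Jun family genes that were high together in PyMT-N tumor cells (Fos, Fosb, Junb) and of Jun, which was close to 0 there, are shown as 250 bases before and 50 bases after the RefSeq start, 5′ to 3′ on the gene's strand, in build GRCm38.p6. This build differs from the mm39 build named in the submitters' processing notes, and the positions are those of the RefSeq table. Capitals mark matches on either strand to 6 motifs. They are the AP-1 site TGACTCA, the cyclic AMP response element TGACGTCA, the Jun-type site TGACATCA, the short element TGACG that also begins the cyclic AMP response element, the TATA box read as TATAAA, and the CArG box.
Fos (chr12:85473640-85473939, + strand): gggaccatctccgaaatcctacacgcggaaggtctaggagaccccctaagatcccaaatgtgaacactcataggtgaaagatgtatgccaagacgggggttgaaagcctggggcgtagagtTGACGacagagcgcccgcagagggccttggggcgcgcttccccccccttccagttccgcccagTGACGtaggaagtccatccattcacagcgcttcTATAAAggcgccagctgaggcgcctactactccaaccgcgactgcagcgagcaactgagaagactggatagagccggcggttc
Fosb (chr7:19309996-19310295, - strand): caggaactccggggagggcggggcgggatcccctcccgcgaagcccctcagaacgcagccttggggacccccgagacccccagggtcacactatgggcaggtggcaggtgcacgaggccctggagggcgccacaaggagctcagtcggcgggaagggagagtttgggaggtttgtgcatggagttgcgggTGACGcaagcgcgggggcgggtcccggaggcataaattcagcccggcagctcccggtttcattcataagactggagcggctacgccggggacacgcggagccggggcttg
Junb (chr8:84978699-84978998, - strand): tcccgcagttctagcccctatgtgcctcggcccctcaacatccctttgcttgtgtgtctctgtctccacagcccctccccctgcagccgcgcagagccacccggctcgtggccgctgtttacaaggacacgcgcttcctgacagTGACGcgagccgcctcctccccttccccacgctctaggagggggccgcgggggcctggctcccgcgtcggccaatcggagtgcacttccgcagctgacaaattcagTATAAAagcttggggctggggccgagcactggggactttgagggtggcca
Jun (chr4:95052173-95052472, - strand): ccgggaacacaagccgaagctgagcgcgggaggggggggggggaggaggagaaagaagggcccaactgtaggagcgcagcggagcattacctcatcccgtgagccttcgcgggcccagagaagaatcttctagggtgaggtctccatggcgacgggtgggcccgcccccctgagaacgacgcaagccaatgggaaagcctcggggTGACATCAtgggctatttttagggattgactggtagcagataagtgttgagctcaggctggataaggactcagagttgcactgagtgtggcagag
Fos held TGACG with first bases 129 and 66 before the start and TATAAA 33 before it. Fosb held TGACG 60 bases before the start, and Junb held it 106 bases before and TATAAA from base 1 after the start. Jun held the 8-letter TGACATCA 45 bases before the start. Of the windows not shown, that of Atf3 held TGACG on the opposite strand, 7 bases before the start. Those of Fosl2 and Jund held no match. Of 32851 promoters of this length, 20.8% held the short element, 13.6% the TATA box, 3.62% the Jun-type site, 5.20% the AP-1 site, 1.79% the cyclic AMP response element and 1.63% a CArG box. The AP-1 site, the full cyclic AMP response element and the CArG box were in none of the 7 members' windows. Bases more than 250 before the start were not searched, so sites further upstream would be missed. A match is only a match of letters, and no match says nothing of binding. The table held 7 of the 9 genes, Fosl1 and Egr1 not among them.

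Of 7821 PyMT-M and 6974 PyMT-N barcodes, 6719 and 5607 had at least 200 genes and at most 10% mitochondrial UMIs. The libraries held 141067264 and 116150425 UMIs and shared 20 barcodes, 12 of them kept. Classes were cut by marker UMIs. Blood endothelial cells (Pecam1, Flt1, Emcn and Kdr) numbered 583 in PyMT-M and 1013 in PyMT-N, lymphatic cells (Prox1, Mmrn1 and Reln) 20 and 204, tumor cells (Krt8, Krt18 and Rhox5) 4849 and 3278, fibroblasts (Col3a1) 45 and 53, and Ptprc+ cells (CD45) 441 and 278. Most kept cells of both libraries were thus tumor cells, although the labels give the cell type as endothelial. Further endothelial markers such as Cdh5 and Esam summed to 4309 CPM (UMIs of a gene per 1000000 UMIs of the class) in PyMT-M blood endothelial cells and 4631 CPM in those of PyMT-N. The tumor class carried Hmga2 at 603 CPM in PyMT-M and 1458 CPM in PyMT-N, whereas the epithelial marker Epcam was at 3.54 and 0.414 CPM and Krt19 had no UMI in the PyMT-M tumor class. Median depth differed, from 1615 UMIs per cell in PyMT-M Ptprc+ cells to 24004 in PyMT-N fibroblasts, so shares of cells are also given after thinning each cell to 3000 UMIs.

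**Figure D1:**
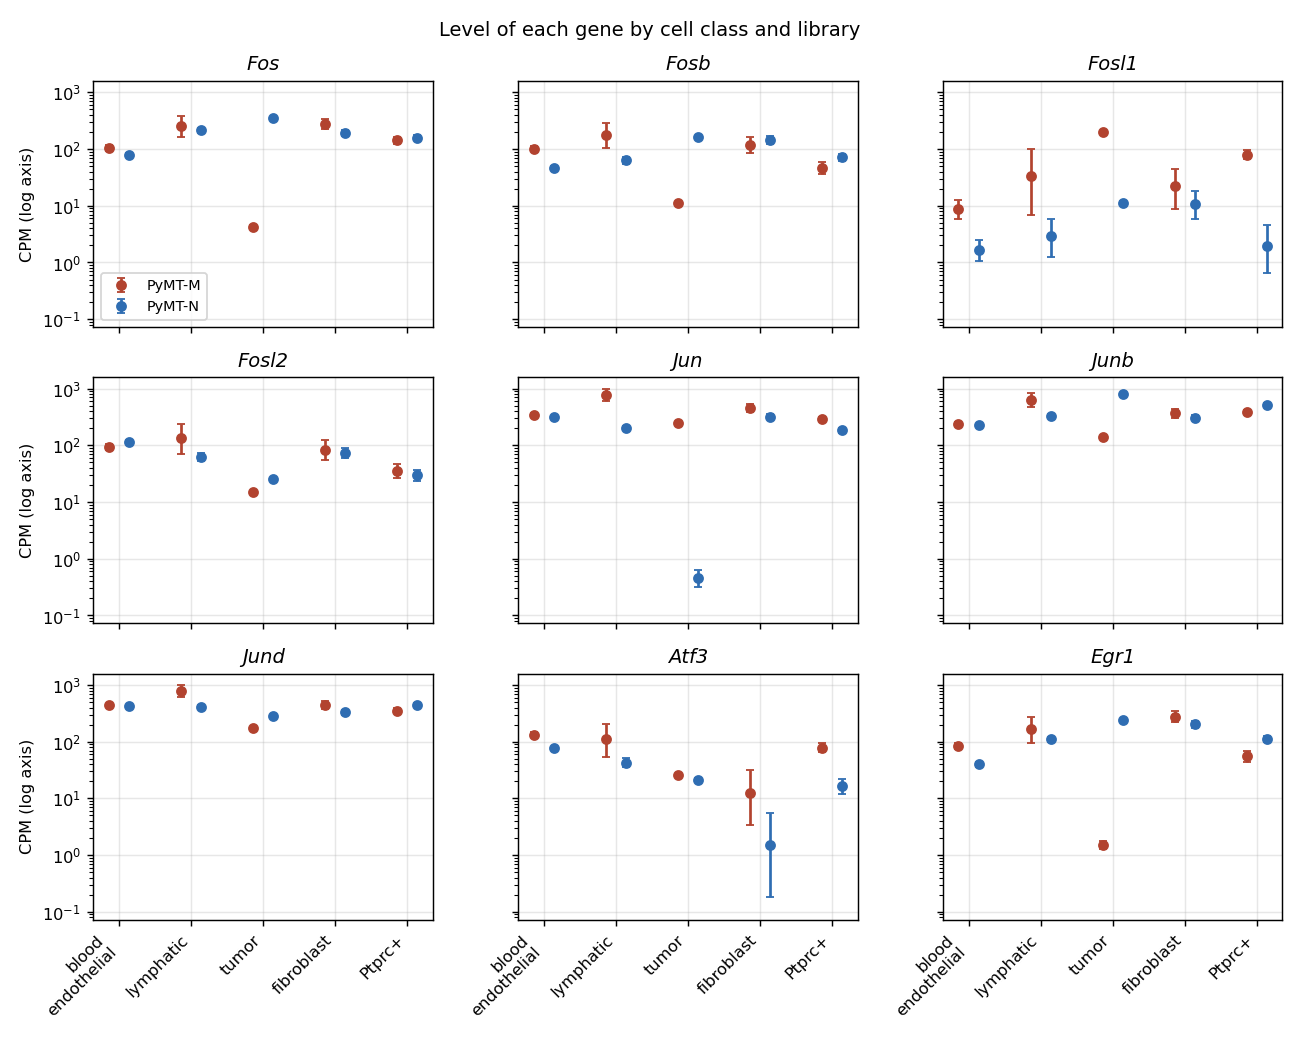
Level of each of the 9 genes in CPM (log axis) in 5 cell classes, with PyMT-M in red and PyMT-N in blue, as UMIs summed over the cells of a class. Bars are exact Poisson 95% intervals. Fosl1 is highest in PyMT-M tumor cells at 196 CPM, Fos and Egr1 fall below 5 CPM in PyMT-M tumor cells alone, and Jun is at 0.454 CPM in PyMT-N tumor cells and above 180 CPM in every other class.

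Fosl1 was higher in PyMT-M tumor cells than in any other class of either library. It was at 196 CPM (193 to 199) in PyMT-M tumor cells and at 11.3 CPM (10.5 to 12.1) in PyMT-N tumor cells. In blood endothelial cells it was at 8.90 CPM (5.96 to 12.8) in PyMT-M, from 29 UMIs, and at 1.67 CPM (1.06 to 2.51) in PyMT-N, from 23 UMIs. Fosl1 was therefore higher in tumor than in blood endothelial cells of both libraries, by 22.0-fold in PyMT-M (log2 4.46, 3.94 to 5.04) and 6.74-fold in PyMT-N (log2 2.75, 2.16 to 3.42). Between tumor cells it was 17.4-fold higher in PyMT-M (log2 4.12, 4.02 to 4.22).

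Fosl1 was spread over PyMT-M tumor cells and was not the property of a few of them. It had a UMI in 92.8% (92.1 to 93.5%) of these cells and in 42.2% after thinning, against 13.8% and 2.37% in PyMT-N tumor cells. The median PyMT-M tumor cell held Fosl1 at 174 CPM, with a 10th percentile of 41.6 and a 90th of 379. The 1% of cells with the most Fosl1 (49 cells) held 4.55% of its UMIs. In PyMT-N the top 33 cells held 26.9%. Fosl1 was close to even over the cell cycle in PyMT-M, at 193 CPM in 3528 cells with at least 3 UMIs of Mki67, Top2a and Cenpf and at 206 CPM in the other 1321 cells. In PyMT-N it was at 32.2 CPM (27.6 to 37.2) in 148 such cycling cells and at 9.58 CPM (8.87 to 10.3) in the other 3130. Cycling cells hold more UMIs, and the part of depth in this difference was not tested.

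Outside tumor cells, Fosl1 in PyMT-M was at 79.5 CPM in Ptprc+ cells, 33.7 CPM in lymphatic cells (3 UMIs), 21.9 CPM in fibroblasts (7 UMIs) and 8.90 CPM in blood endothelial cells. The last 3 have overlapping intervals. Tumor marker genes give the level that RNA of tumor cells reaches in a class, as stray RNA or in misplaced cells. In PyMT-M tumor cells Hmga2 and Wfdc2 gave 72127 and 25994 of the 100337 UMIs of the 8 tumor check markers. Krt7, Krt19, Cldn4 and Cldn7 had at most 1 UMI each there, so the sum rests on few genes. In PyMT-N tumor cells Lgals7 and Hmga2 gave 154339 and 109099 of 265986 UMIs. In PyMT-M blood endothelial cells the 8 tumor check markers summed to 3.51% (2.84 to 4.29%) of their tumor cell level and Fosl1 stood at 4.54% (3.04 to 6.52%) of its own. The markers differed among themselves, with Hmga2 at 1.68% (1.16 to 2.36%), below Fosl1, and Wfdc2 at 7.20% (5.36 to 9.47%). In PyMT-M Ptprc+ cells the markers stood at 45.9% (42.1 to 49.8%), with Hmga2 at 52.5% and Wfdc2 at 28.7%, and Fosl1 at 40.6% (33.5 to 48.7%). Fosl1 in blood endothelial and Ptprc+ cells of PyMT-M thus lay between single tumor markers and could not be told apart from RNA of tumor cells. In PyMT-M fibroblasts Fosl1, on 7 UMIs, stood at 11.2% (4.49 to 23.0%) and the summed markers at 2.23% (0.820 to 4.86%). Among single markers there, Hmga2 had 0 UMIs, Wfdc2 stood at 2.88% and Lgals7, on 2 UMIs, at 41.8%. In PyMT-M Ptprc+ cells Fosl1 was unevenly spread, with a UMI in 29 of 441 cells and 48.3% of its UMIs in 5 cells. Whether these were tumor cells or doublets was not tested. Fosl1 was not read as expression by endothelial cells of PyMT-M or by leukocytes. Its 5.32-fold ratio of PyMT-M over PyMT-N in blood endothelial cells was not read as expression either. In PyMT-N Ptprc+ cells Fosl1, on 5 UMIs, stood at 17.4% (5.65 to 40.9%) of its tumor level and the markers at 21.8%. In PyMT-N blood endothelial cells Fosl1 stood at 14.8% (9.36 to 22.4%) of its tumor level against 0.674% (0.603 to 0.751%) for the markers. Fosl1 there also lay above Lgals7 (0.639%), Hmga2 (0.689%) and Wfdc2 (0.891%, 0.242 to 2.28%). The source of Fosl1 in endothelial cells of PyMT-N was not tested. In PyMT-N fibroblasts, 14 UMIs gave 10.7 CPM, with an interval that held the tumor level. Fosl1 there stood at 94.9% (51.6 to 160%) of its tumor level and the summed markers at 8.17% (7.37 to 9.04%). The source of Fosl1 in the fibroblasts of either library was not tested.

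Fos, Fosb and Egr1 had the opposite order between the tumor cells of the libraries. Fos, the immediate early partner of Jun, was at 4.21 CPM (3.85 to 4.59) in PyMT-M tumor cells and at 356 CPM (351 to 360) in those of PyMT-N, which is 84.6-fold lower in PyMT-M (log2 -6.40, -6.53 to -6.27). Egr1 was at 1.51 CPM in PyMT-M and 243 CPM in PyMT-N tumor cells, 161-fold lower in PyMT-M (log2 -7.33, -7.55 to -7.12). Fosb was at 11.0 and 160 CPM, 14.6-fold lower in PyMT-M (log2 -3.86, -3.95 to -3.78). The intervals of the libraries did not overlap for any of these 3 genes. Fos in PyMT-M tumor cells stood at 4.03% (3.51 to 4.64%) of the blood endothelial level and Egr1 at 1.78% (1.47 to 2.16%). The blood endothelial check markers summed to 0.928% (0.898 to 0.959%) of theirs. Egfl7 gave 4107 of their 4782 UMIs in tumor cells and stood at 2.02% (1.94 to 2.10%). The others stood at 0.0556% (Cldn5) to 0.377% (Cdh5). Egr1 thus lay near Egfl7 and above the other markers, and Fos lay above all of them. The source of the Fos and Egr1 UMIs in PyMT-M tumor cells was not tested.

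The shares of cells followed the levels. Fos had a UMI in 6.58% of PyMT-M tumor cells (1.11% after thinning) and in 70.4% of PyMT-N tumor cells (38.0%). For Egr1 the shares were 3.42% (0.418% after thinning) and 75.3% (39.6%), and for Fosb 13.8% (2.84%) and 63.1% (28.4%). Fos was unevenly spread in PyMT-N tumor cells, with a median cell at 94.8 CPM, a 90th percentile of 1137 CPM and up to 212 UMIs in a cell. In PyMT-M tumor cells 38.2% of all Fos UMIs lay in the 49 cells with most of it.

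**Figure D2:**
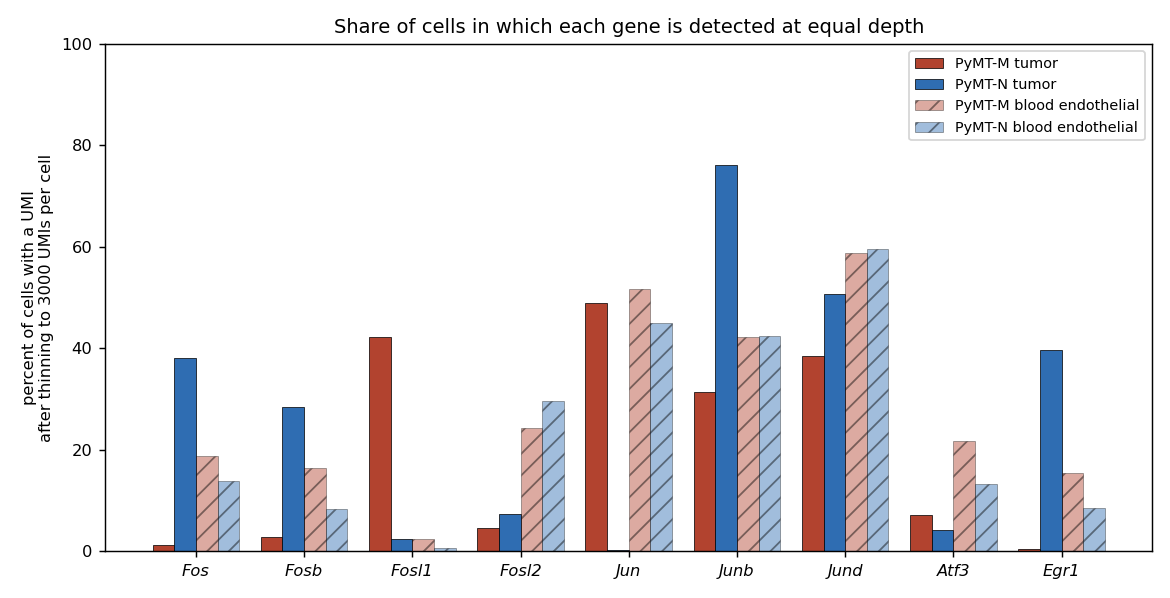
Percent of cells with at least 1 UMI of each gene after thinning every cell to 3000 UMIs, in tumor cells (solid bars) and blood endothelial cells (hatched bars) of PyMT-M (red) and PyMT-N (blue). Fosl1 reaches 42.2% of PyMT-M tumor cells and at most 2.37% elsewhere in the plot, while Fos reaches 38.0% of PyMT-N and 1.11% of PyMT-M tumor cells.

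Compared with blood endothelial cells of the same library, Fos, Fosb, Egr1 and Junb were lower in the tumor cells of PyMT-M and higher in those of PyMT-N. Summed, 18 other dissociation-linked genes did not change sides. They were at 2182 CPM in tumor and 1976 CPM in blood endothelial cells of PyMT-M, and at 1933 and 1828 CPM in those of PyMT-N. Such a sum weighs abundant genes most. Gene by gene, 4 were at least 2-fold higher and 7 lower in tumor cells of PyMT-M (17 compared, median log2 -0.70). In PyMT-N 6 were higher and 4 lower (18 compared, median log2 0.17). Fos was at 104 CPM (93.5 to 116) in PyMT-M blood endothelial cells and at 80.1 CPM (75.4 to 84.9) in those of PyMT-N. The ratio of tumor over blood endothelial cells was then log2 -4.63 (-4.83 to -4.43) in PyMT-M and 2.15 (2.06 to 2.24) in PyMT-N. Egr1 went from log2 -5.81 in PyMT-M to 2.61 in PyMT-N, Fosb from -3.21 to 1.79 and Junb from -0.78 to 1.80. These 4 members changed sides between the libraries, with intervals clear of 0 in both, and Fosl1 was above 0 in both. Over all 9 members, 1 was at least 2-fold higher and 6 at least 2-fold lower in tumor cells of PyMT-M, where 15.9% of 15130 genes were 2-fold higher and 29.4% lower. In PyMT-N 5 were 2-fold higher and 3 lower, where 38.9% of 15561 genes were past 2-fold, with 18.6% higher and 20.3% lower. The median member stood at log2 -2.34 in PyMT-M against -0.24 for all genes, and at 1.79 in PyMT-N against -0.04.

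**Figure D3:**
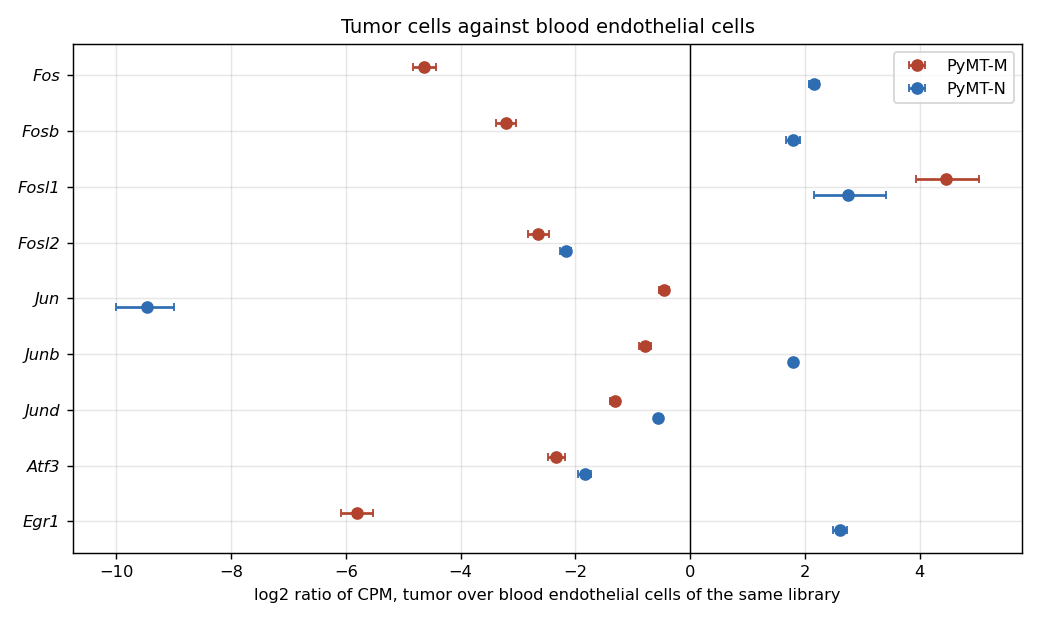
Log2 ratio of CPM in tumor cells over blood endothelial cells of the same library for the 9 genes, PyMT-M in red and PyMT-N in blue, with 95% intervals of a ratio of Poisson counts and a line at 0. Fosl1 lies right of 0 in both libraries (4.46 and 2.75), Fos, Fosb, Junb and Egr1 lie left of 0 in PyMT-M and right of it in PyMT-N, and Jun lies at -9.47 in PyMT-N.

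Jun, the best known AP-1 subunit, was nearly absent from PyMT-N tumor cells. It had 34 UMIs in 22 of 3278 cells, 0.671% (0.421 to 1.01%), or 0.454 CPM (0.315 to 0.635). The cells were not marginal in depth, with a median of 20771 UMIs. In PyMT-M tumor cells Jun was at 252 CPM (249 to 255) and in 94.9% of cells. It was at 345 CPM (325 to 366) in PyMT-M and 323 CPM (313 to 333) in PyMT-N blood endothelial cells, so the PyMT-N tumor cells were 711-fold lower than blood endothelial cells of the same library (log2 -9.47, -10.01 to -8.99). Of 975 genes at 100 CPM or more in both PyMT-M tumor and PyMT-N blood endothelial cells, 3 were under 1 CPM in PyMT-N tumor cells. The other 2, named after their values were seen, were Cyba at 0.588 CPM and Cdh13 at 0.949 CPM.

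The source of the few Jun UMIs of PyMT-N tumor cells was not tested. Jun stood at 0.141% (0.0973 to 0.197%) of its blood endothelial level, and the summed blood endothelial check markers at 0.226% (0.210 to 0.242%) of theirs. Single markers stood at 0.114% (Tek) to 0.375% (Egfl7). The tumor class leaves out cells with any Pecam1 or Flt1 UMI, which can lower these markers. Jun was also at 184 CPM in Ptprc+ cells, 203 CPM in lymphatic cells and 323 CPM in fibroblasts of PyMT-N. Of the 22 cells, 18 held a single Jun UMI and the highest held 8. Endothelial check markers were at 3.35 CPM in these 22 cells and at 10.5 CPM in the other 3256. No interval was computed, and 22 cells hold too few UMIs of these markers to tell the levels apart. The 693 PyMT-N cells that met no class definition had Jun at 41.0 CPM.

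The genes next to Jun were low in the same cells over a limited stretch. Of the 8 genes on either side of Jun on mouse chromosome 4 in RefSeq order that had at least 5 CPM in PyMT-M tumor and PyMT-N blood endothelial cells, 8 of 16 were under 1 CPM in PyMT-N tumor cells, and they stood in 1 unbroken run with Jun. Mtap was at 0.067 CPM there against 72.8 CPM in PyMT-M tumor cells, Plaa at 0.12 against 65.8, and Mysm1, next to Jun, at 0.13 against 35.2. On the other side Fggy was at 0.013 CPM against 48.4, Nfia at 0.20 against 76.6 and Tm2d1 at 0.13 against 30.7. Beyond the run, Klhl9 was at 32.0 CPM in PyMT-N tumor cells and Usp1 at 21.2 CPM. All 8 were present in PyMT-N blood endothelial cells, from 9.24 CPM for Fggy to 260 CPM for Nfia. The share of all genes with the same 5 CPM minimum that were under 1 CPM in PyMT-N tumor cells was not counted. Between tumor cells of the libraries, 21.6% of 16833 genes were at least 2-fold higher in PyMT-M. The genes next to Jun were chosen by position after the value of Jun was seen, and the cause of the run was not tested.

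**Figure D4:**
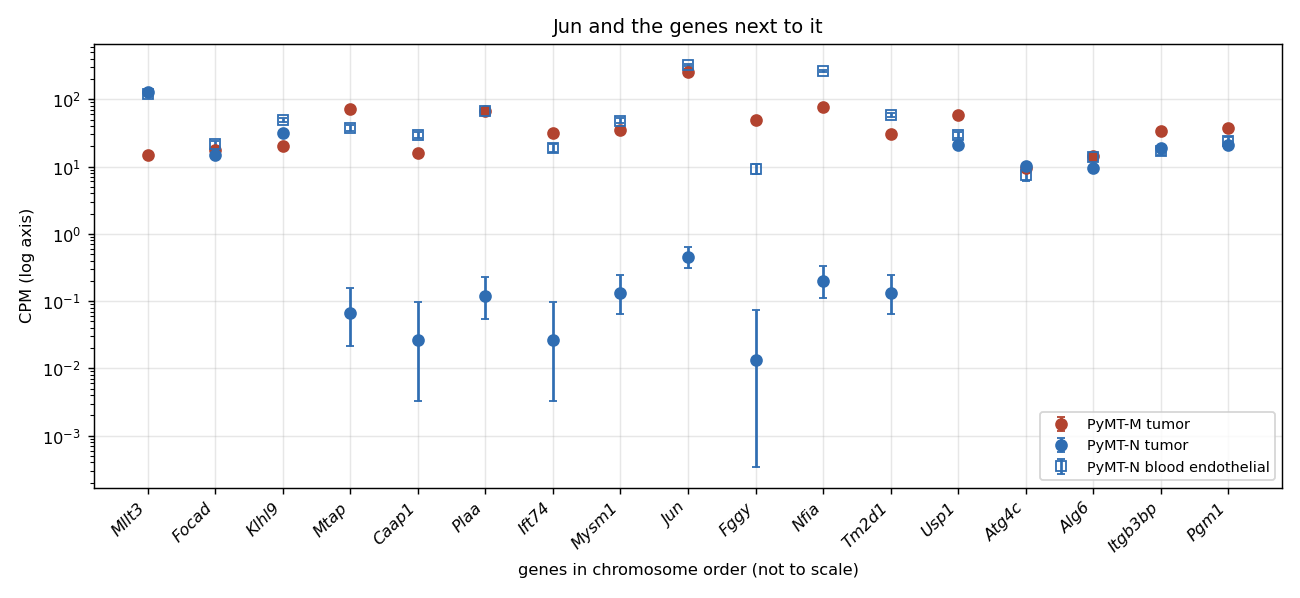
CPM (log axis) of Jun and the 8 expressed genes on either side of it, in chromosome order and not to distance, in PyMT-M tumor cells (red), PyMT-N tumor cells (blue) and PyMT-N blood endothelial cells (open blue squares), with exact Poisson 95% intervals. From Mtap to Tm2d1 the PyMT-N tumor cells lie below 1 CPM, and from Mllt3 to Klhl9 and from Usp1 to Pgm1 they lie between 9.38 and 128 CPM.

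The other Jun family members were present in the tumor cells of both libraries. Junb, which can replace Jun in AP-1 but activates many sites more weakly, was at 139 CPM (137 to 141) in PyMT-M and at 802 CPM (796 to 808) in PyMT-N tumor cells, 5.76-fold lower in PyMT-M (log2 -2.53, -2.55 to -2.50). It had a UMI in 97.9% of PyMT-N tumor cells and 76.2% after thinning, against 85.5% and 31.3% in PyMT-M. Jund, the Jun family member that most cells express steadily, was at 177 and 290 CPM, a smaller gap (log2 -0.71, -0.74 to -0.69). All 3 Jun genes were lower in PyMT-M tumor cells than in the blood endothelial cells beside them, Jun by log2 -0.45 (-0.54 to -0.36) and Jund by -1.31 (-1.39 to -1.23).

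Fosl2 and Atf3 were higher in blood endothelial than in tumor cells of both libraries. Fosl2, which encodes the stable Fos relative FRA-2, was at 93.6 CPM in PyMT-M and 117 CPM in PyMT-N blood endothelial cells, against 14.9 and 26.0 CPM in tumor cells. Atf3 was at 133 and 77.0 CPM in blood endothelial cells, against 26.3 and 21.6 CPM in tumor cells. Both genes were 3.57-fold to 6.27-fold lower in tumor cells. In fibroblasts, where Fos and Egr1 were high, Atf3 had only 4 UMIs (12.5 CPM, 3.41 to 32.0) in PyMT-M and 2 UMIs (1.53 CPM, 0.185 to 5.52) in PyMT-N.

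Between the tumor cells of the libraries, 2 members were at least 2-fold higher in PyMT-M (Fosl1 and Jun) and 4 lower (Fos, Fosb, Junb and Egr1), where 21.6% of 16833 genes were higher and 27.6% lower. The tumor cells differed widely in general, with 49.2% of genes past 2-fold in either direction. The median of all genes was at log2 -0.12, and setting it to 0 would add 0.12 to each member's log2 ratio. Fosl1 and Jun would then lie further from 0, and the 4 lower members nearer to it.

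Blood endothelial cells of the libraries differed far less. Jun (log2 0.09, -0.0012 to 0.19), Junb (0.06, -0.06 to 0.17) and Jund (0.04, -0.04 to 0.13) did not differ beyond counting error. Fosb was at 102 CPM in PyMT-M and 46.4 CPM in PyMT-N (log2 1.14, 0.94 to 1.33), Egr1 at 85.0 and 39.8 CPM (1.09, 0.88 to 1.31), Atf3 at 133 and 77.0 CPM (0.79, 0.62 to 0.95) and Fos at 104 and 80.1 CPM (0.38, 0.20 to 0.56). Fosl2 was lower in PyMT-M (-0.32, -0.50 to -0.14). Of the 9 members, 3 were at least 2-fold higher in PyMT-M and 0 lower, or 2 (Fosb and Egr1) without Fosl1, whose ratio is not read as expression, where 6.25% of 12557 genes were higher and 5.53% lower. Egr1 fell under 2-fold, to log2 0.75, when cells that met several class definitions were kept. PyMT-M blood endothelial cells were shallower, with a median of 5197 UMIs against 12397, and the heat-shock genes summed to 3658 CPM against 2242. Their 5 pericyte check markers summed to 194 CPM against 130, and the fibroblast check markers to 31.9 CPM against 6.91. Of the pericyte markers, Rgs5 was at 50.6 CPM against 3.13 and Acta2 at 119 against 1.89, and only Kcnj8 was lower (9.51 against 124). The part of any of these in the ratios was not tested.

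Vessel types were read from at least 3 UMIs of a type's markers, and many cells fell in several types, so near-equal levels are partly fixed by shared cells. In PyMT-N blood endothelial cells Fos was at 82.0 CPM in 874 venous, 77.2 CPM in 350 arterial, 78.4 CPM in 581 tip and 74.8 CPM in 921 capillary cells. Cycling cells (89) had less, 55.8 CPM (44.9 to 68.6), and Egr1 at 14.3 CPM (9.04 to 21.4) against 37.5 CPM (34.3 to 41.0) in capillary cells. PyMT-M did not show this, with cycling cells (70) at 105 CPM (80.9 to 134) for Fos and 93.5 CPM (71.0 to 121) for Egr1, against 108 and 89.7 CPM in capillary cells. In PyMT-M the venous cells (188) had Fos at 151 CPM (130 to 176) and the tip cells (275) at 106 CPM (91.6 to 122). Fosl1 was at most 12.9 CPM in any of these types.

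In the smaller classes, Fos in PyMT-M was at 281 CPM (226 to 346) in fibroblasts and 258 CPM (164 to 388) in lymphatic cells, which overlap, then at 143 CPM in Ptprc+ and 104 CPM in blood endothelial cells, all far above the 4.21 CPM of tumor cells. In PyMT-N the order began with tumor cells at 356 CPM, then lymphatic cells at 213 CPM (196 to 231) and fibroblasts at 196 CPM (172 to 221), which overlap. Ptprc+ cells at 158 CPM and blood endothelial cells at 80.1 CPM followed. In PyMT-N lymphatic cells 37.3% of Fos UMIs lay in 3 of 204 cells. Fos had a UMI in 28.9% of them and in 32.3% of blood endothelial cells (17.5% and 13.8% after thinning). Egr1 in fibroblasts was at 278 CPM in PyMT-M and 202 CPM in PyMT-N. In Ptprc+ cells Atf3 was 4.77-fold higher in PyMT-M (78.9 against 16.5 CPM, log2 2.25, 1.73 to 2.80), whereas Fos over all Ptprc+ cells did not differ beyond counting error (log2 -0.14, -0.39 to 0.11). Within them Fos was at 252 CPM (217 to 291) in PyMT-M and 158 CPM (140 to 179) in PyMT-N myeloid cells. It was at 88.0 CPM (49.3 to 145) and 219 CPM (175 to 269) in lymphocytes. A further 223 Ptprc+ cells of PyMT-M and 99 of PyMT-N met neither definition, with Fos at 16.2 CPM (7.42 to 30.8) and 106 CPM (79.7 to 139). Values over all Ptprc+ cells, for every member, thus include many cells of no named leukocyte type. In PyMT-N Ptprc+ cells Fos stood at 44.4% (40.1 to 49.0%) of its tumor cell level and the tumor check markers at 21.8% (20.8 to 22.8%) of theirs, and the part of stray tumor RNA in the Fos level was not tested. Of the 9 members, 2 were at least 2-fold higher in PyMT-M Ptprc+ cells, where 8.34% of 10965 genes were. They were Atf3 and Fosl1, the latter at the level of the tumor markers. Members at least 2-fold lower numbered 0, where 8.44% of genes were, but Egr1 was just short of it (log2 -0.996, -1.37 to -0.64). Fosb was at log2 -0.63 (-1.06 to -0.22), while Jun was higher in PyMT-M (0.68, 0.48 to 0.87). Egr1 was at 92.7 CPM (72.0 to 118) in PyMT-M and 116 CPM (99.9 to 134) in PyMT-N myeloid cells, which overlap. It was at 35.2 and 96.9 CPM in lymphocytes and at 14.4 and 112 CPM in cells of neither type. Tumor check markers stood at 45.9% of their tumor cell level in PyMT-M Ptprc+ cells. The part of stray tumor RNA in the Egr1, Fosb and Jun ratios was not tested. Within PyMT-M Ptprc+ cells Atf3 was at 139 CPM in 164 myeloid cells and had 1 UMI in 54 lymphocytes. In lymphatic cells Jun was at 775 CPM (603 to 981) in PyMT-M and 203 CPM (186 to 220) in PyMT-N. Jun, Fosb, Atf3 and Fosl2, 4 of the 8 members compared, were at least 2-fold higher in PyMT-M and 0 lower, where 20.9% of 9918 genes were higher, 10.9% lower and 31.7% either. The 20 PyMT-M lymphatic cells held 10 to 71 UMIs of each of the 8 members compared, and 3 of Fosl1. In fibroblasts 1 of 8 members compared was 2-fold higher in PyMT-M, Fosl1 on 7 against 14 UMIs (log2 1.03, -0.52 to 2.44), where 6.95% of 8190 genes were.

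Dissociation-linked genes were used to ask which members move with them from cell to cell. Cells of a class were ranked by the summed CPM of 18 such genes (among them Ier2, Dusp1, Zfp36, Klf6 and Nfkbia, and no member) and cut into tertiles of equal cell number. Many of the 18 are themselves immediate early genes, so a rise of the immediate early members with them was likely beforehand. The ranking cannot separate digestion from growth factor or stress signals already present in the tumor, and the source was not tested. In PyMT-N tumor cells Fos was at 82.6, 193 and 800 CPM in the lowest, middle and highest tertile, a log2 ratio of highest over lowest of 3.28 (3.21 to 3.34). Atf3 went from 6.23 to 50.5 CPM (log2 3.02), Egr1 from 112 to 404 CPM (1.84) and Junb from 380 to 1354 CPM (1.83). Median depth was near equal, at 21281 UMIs in the lowest and 20469 in the highest tertile.

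In PyMT-M tumor cells the Fos level was low throughout and it again climbed, at 1.65, 2.93 and 8.04 CPM (log2 2.28, 1.89 to 2.69). Fosl1 in the same tertiles was at 158, 195 and 235 CPM (log2 0.58, 0.53 to 0.63) and Jun at 206, 241 and 310 CPM (0.59, 0.55 to 0.63). Fosl1 was thus at 158 CPM in the PyMT-M tertile with the lowest list sum, above its level in every tertile of PyMT-N tumor cells (7.03, 8.08 and 18.9 CPM). The median list sum of that PyMT-M tertile was 1213 CPM, against 868 CPM in the lowest PyMT-N tertile. Abundant genes weigh most in the sum, so the lowest tertile need not be free of dissociation effects. The slope of Fosl1 in PyMT-M was less than that of Fos, and the intervals did not overlap. In PyMT-N, on 844 UMIs, the Fosl1 slope was log2 1.42 (1.17 to 1.68), again less than that of Fos. Egr1 in PyMT-M tumor cells had no slope beyond counting error (0.22, -0.31 to 0.75).

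In blood endothelial cells Fos went from 45.4 to 226 CPM in PyMT-M (log2 2.32) and from 23.4 to 183 CPM in PyMT-N (2.97), and Fosl2 from 75.7 to 123 CPM (0.70) and 95.5 to 138 CPM (0.53). The list and the immediate early members respond to the same signals, so the counts that follow only describe the cells. From lowest to highest tertile, 4 of 9 members were at least 2-fold higher in PyMT-M tumor cells, where 1.62% of all genes were. In PyMT-N tumor cells all 8 members with at least 20 UMIs in these tertiles were, where 1.71% of all genes were, and Jun had 15 UMIs and was not compared. In blood endothelial cells 7 of 9 were in PyMT-M and 8 of 9 in PyMT-N, where 2.92% and 2.26% of all genes were. In PyMT-N lymphatic cells 7 of 8 were, where 4.78% of all genes were, and in PyMT-N Ptprc+ cells 8 of 8, where 5.54% were. In PyMT-M Ptprc+ cells 6 of 9 were, where 12% of all genes were. That class mixes 164 myeloid cells, 54 lymphocytes and 223 cells of neither type, with Fos at 252, 88.0 and 16.2 CPM. Its tertiles can therefore also differ in cell type, and the part of this was not tested. Ranking the cells of each class by 8 heat-shock genes gave other slopes. Fos was then at log2 0.02 in PyMT-M and -0.35 in PyMT-N tumor cells, and Fosl1 at -0.11 and 1.80.

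**Figure D5:**
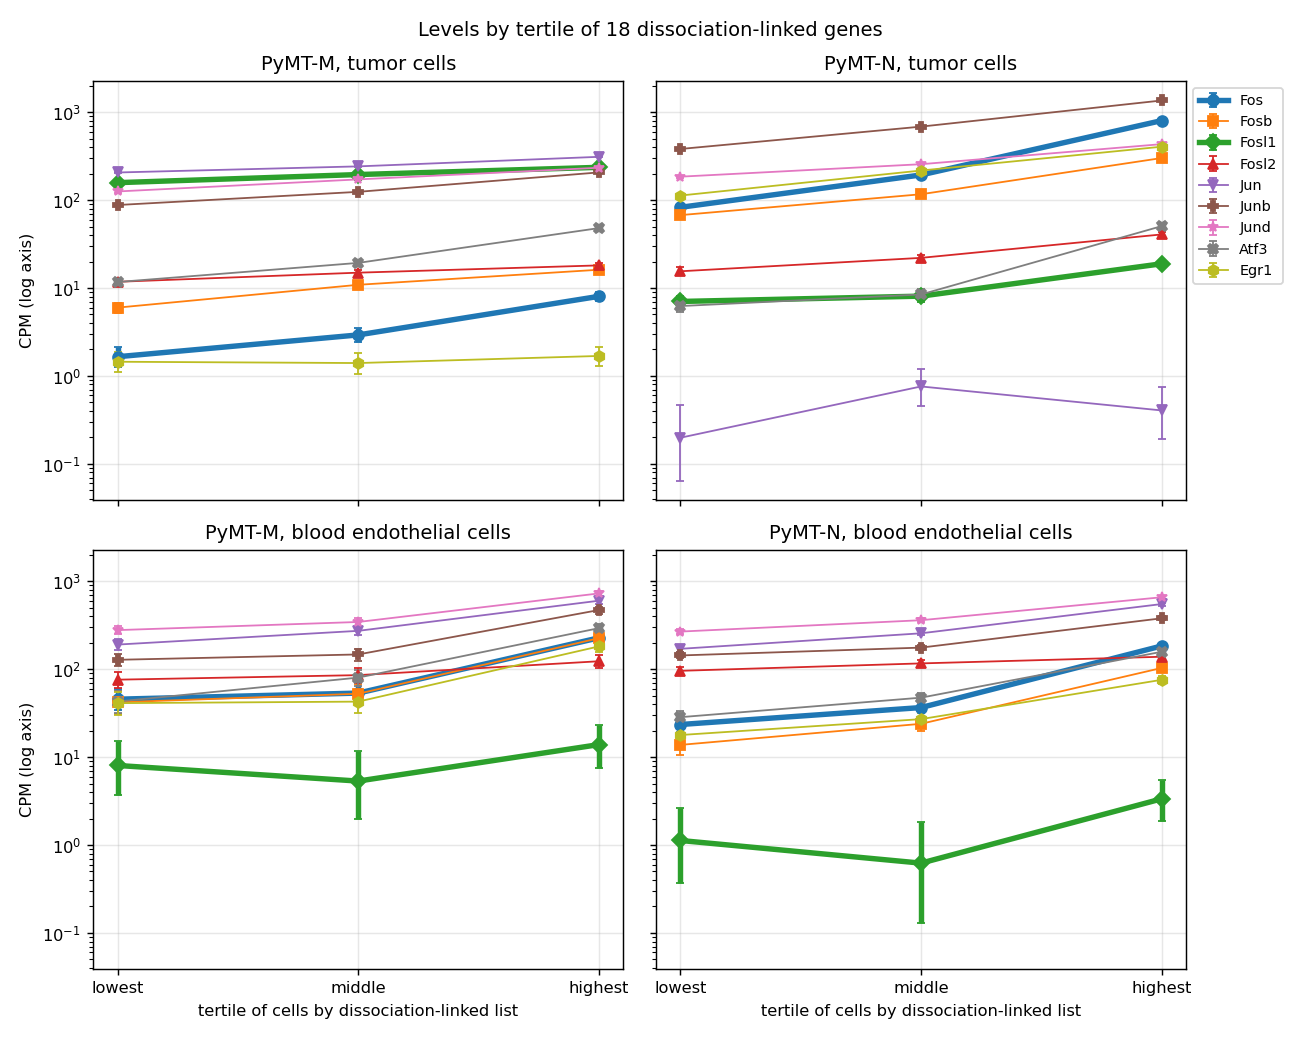
CPM (log axis) of the 9 genes in the lowest, middle and highest tertile of cells by summed CPM of 18 dissociation-linked genes, in tumor and blood endothelial cells of each library, with exact Poisson 95% intervals and Fos and Fosl1 as thick lines. In PyMT-M tumor cells Fosl1 goes from 158 to 235 CPM and Fos from 1.65 to 8.04 CPM, and in PyMT-N tumor cells Fos climbs from 82.6 to 800 CPM.

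Cells split by whether they held a Fos UMI were also compared. PyMT-M tumor cells with a Fos UMI (319) had Fosl1 at 198 CPM and those without (4530) at 196 CPM. Fosb, in contrast, was at 48.9 CPM in the cells with Fos and 7.91 CPM in those without, and Atf3 at 49.7 and 24.4 CPM. In PyMT-N tumor cells, Fosb was at 205 CPM in 2309 cells with Fos and 34.0 CPM in 969 without, Egr1 at 289 and 115 CPM and Fosl1 at 12.9 and 6.59 CPM. Cells with a UMI were deeper (median 27362 against 23515 UMIs in PyMT-M), which raises the chance of a UMI of any gene. PyMT-M tumor cells with and without a Cdh5 UMI, the gene of the sorted antigen CD144, had Fosl1 at 204 and 195 CPM.

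Over the 10 class and library pools, genes among the most like Fosl1 by Pearson's r of log2(CPM + 1) were Rhox5 (0.96, a gene of the tumor class definition), Nthl1 (0.96), Rangrf (0.95) and Esd (0.94), of 10607 genes. The genes most like Fos were Isyna1 (0.97), Susd6 (0.96), Carmil1 (0.96), Bscl2 (0.95) and Flot2 (0.95). Among members, Fos was most like Egr1 (0.98), Fosb (0.90) and Junb (0.81), and stood at -0.49 with Fosl1. The pools share 2 libraries and differ in depth, so these values only describe them.

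The genes around AP-1 are given as counts at least 2-fold apart in tumor over blood endothelial cells, to be read against all genes, of which 15.9% were higher and 29.4% lower in PyMT-M. In PyMT-N the shares of all genes were 18.6% and 20.3%. Of 13 kinases and cofactors upstream of immediate early genes, 0 were 2-fold higher and 5 lower in PyMT-M tumor than blood endothelial cells, and 0 and 3 in PyMT-N. Elk3, a ternary complex factor abundant in endothelium, was lowest of them in both, at 64.1 against 379 CPM and 93.5 against 557 CPM. Srf, the factor that binds the CArG box, was at 14.3 CPM in PyMT-M and 4.38 CPM in PyMT-N tumor cells. Of 8 ERK feedback genes, 1 was 2-fold higher and 2 lower in PyMT-M tumor cells, and 4 and 0 in PyMT-N. Dusp4, an ERK phosphatase, was high in tumor over blood endothelial cells of both libraries (log2 4.07, 2.84 to 5.69 in PyMT-M, and 3.34, 2.84 to 3.88 in PyMT-N). Spry1, a receptor tyrosine kinase inhibitor, was at 3.69 CPM in PyMT-M tumor cells and 102 CPM in those of PyMT-N.

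Of the 18 dissociation-linked genes, 17 could be compared in PyMT-M, where 4 were 2-fold higher and 7 lower in tumor than in blood endothelial cells, with a median of log2 -0.70 against -0.24 for all genes. In PyMT-N 6 were higher and 4 lower, with a median of 0.17. Cebpb, a stress and differentiation factor, was high in tumor cells of both libraries (364 and 424 CPM, against 24.9 and 24.7 CPM in blood endothelial cells). Btg2, an antiproliferative immediate early gene, was at 6.16 CPM in PyMT-M and 38.4 CPM in PyMT-N tumor cells. Egr2, a relative of Egr1, had 0 UMIs in PyMT-M tumor cells and 858 UMIs (11.5 CPM) in those of PyMT-N. Of the 8 heat-shock genes, Hspa1a and Hspb1 were at 0.192 and 1.25 CPM in PyMT-M tumor cells and at 107 and 525 CPM in those of PyMT-N, whereas Hspe1 was at 1124 and 403 CPM.

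Among 13 other AP-1 related factors, 3 were 2-fold higher and 4 lower in PyMT-M tumor than blood endothelial cells, where 15.9% and 29.4% of all genes were. In PyMT-N 3 were higher and 2 lower, where 18.6% and 20.3% of all genes were. Atf5, a stress-response factor, was high in tumor cells of both (69.8 against 11.0 CPM and 50.7 against 10.0 CPM). Of 15 AP-1 target genes, 14 could be compared in PyMT-M, where 6 were higher and 3 lower, and 15 in PyMT-N, where 9 were higher and 4 lower. Spp1, which encodes osteopontin, reached 1750 CPM in PyMT-M and 25254 CPM in PyMT-N tumor cells. Axl, a receptor kinase, was at 147 CPM in PyMT-M and 148 CPM in PyMT-N tumor cells, and Plau, which encodes urokinase, was at 3.19 CPM in PyMT-M and 59.1 CPM in PyMT-N tumor cells. Between the blood endothelial cells of the libraries, where 6.25% of all genes were 2-fold higher in PyMT-M and 5.53% lower, 4 of 11 AP-1 target genes were higher and 1 lower. For the other AP-1 related factors these counts were 3 and 1 of 12, for the dissociation-linked genes 1 (Gadd45b) and 1 of 17, for the heat-shock genes 1 (Hspb1) and 0 of 8, for the ERK feedback genes 0 and 1 of 8 (Spry1), and for the upstream genes 0 and 0 of 13.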

How the data were processed

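The deposited values are whole-number UMI counts, not normalized, for each gene in each barcode of the 10x Genomics 3′ libraries. The submitters' processing notes name Cell Ranger 8.0.0 and the build mm39. Reads that start in near-identical genes (Hspa1a and Hspa1b) could be split or lost in counting, and 3′ counts carry no gene length, so CPM of different genes do not share a length scale. Sources differ on the digestion enzyme: collagenase I in the sample protocol, collagenase II with dispase II in the study's methods.

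Cells with at least 200 genes and at most 10% mitochondrial UMIs were kept, without the study's limit around the median gene number, which was run as an alternative. Blood endothelial cells had at least 5 UMIs of Pecam1, Flt1, Emcn and Kdr and at most 1 of Krt8, Krt18 and Rhox5. Lymphatic cells had at least 3 UMIs of Prox1, Mmrn1 and Reln. Tumor cells had at least 3 UMIs of Krt8, Krt18 and Rhox5 and none of Pecam1 or Flt1. Fibroblasts had Col3a1 at 3000 CPM or more and Ptprc+ cells at least 1 UMI. Cells that met the blood endothelial and lymphatic definitions were counted as lymphatic (8 and 172), cells that met other pairs were left out (60 and 88), and 721 and 693 met none. No doublet caller was run, and cells above 2 times the median UMIs of their class were left out as an alternative.

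UMIs were summed per class and library, scaled to CPM, and given exact Poisson intervals. Shares have exact Clopper-Pearson intervals, and ratios the exact interval of 2 Poisson counts, at 95%. Percent after thinning is the hypergeometric expectation at 3000 UMIs. Genes with at least 20 UMIs over both sides of a comparison were compared, a gene with no UMI in a class took the limit of 3 counts there, and at least 2-fold is the call. The members and the 6 lists were chosen with earlier results of these data known. Genes named from a list come from its 2 highest and 2 lowest ratios. Ratios and thinning were tested on simulated data. Computations ran in Python 3.11.15 with scipy 1.17.1, pandas 2.3.3 and numpy 2.4.6, and plots in matplotlib 3.10.9. Some genes that the naming rules select are not reported here.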

Additional observations from a re-analysis of the deposited data

Results flagged for a closer look

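The ratio of tumor over blood endothelial cells had opposite signs in PyMT-M and PyMT-N for 4 of the 9 members. The log2 ratio of PyMT-M minus that of PyMT-N was -6.78 for Fos, -5.00 for Fosb, -2.58 for Junb and -8.42 for Egr1. With 1 library of each kind, the difference was not tested. It lay mainly in the tumor cells, where Fos was at 4.21 CPM in PyMT-M and 356 CPM in PyMT-N, while the blood endothelial cells were at 104 and 80.1 CPM.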

How the results depend on the processing

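No paired analysis was possible because each condition has 1 library, and no replicate could be left out. Of 36 ratios of members, 24 were at least 2-fold. All 24 kept their sign under the 8 or 9 alternatives run for each, and 23 stayed at least 2-fold (the exception is Egr1 between blood endothelial cells, given with its value in the report). Fos in tumor over blood endothelial cells of PyMT-N moved to log2 1.97 with cells of several classes kept. Without mitochondrial, ribosomal-protein and hemoglobin genes in the total, Fos moved to -6.20 between tumor cells and -4.38 for tumor over blood endothelial cells of PyMT-M, and Fosl1 to 4.32 between tumor cells. Fosl1 between tumor cells was 4.53 as the mean of cell CPM, 4.39 without cells above 2 times the median UMIs, 5.02 in cells of 5000 to 30000 UMIs and 4.24 relative to the median gene. Fosl1 in tumor over blood endothelial cells of PyMT-N was 2.15 as the mean of cell CPM and 1.91 in cells of 5000 to 30000 UMIs. Ranked by heat-shock genes, the tertile ratio of Fos was 0.016 in PyMT-M tumor cells and turned to -0.35 in those of PyMT-N, and that of Fosl1 was -0.11 and 1.80. In cells of 5000 to 30000 UMIs the Fosl1 tertile ratio in PyMT-N was 1.79. The causes were not tested. Of the log2 ratios and tumor tertile ratios of Fos and Fosl1 and the counts of members, 129 stayed, 14 moved and 1 reversed. Of the others, which include the CPM and shares of cells of Fos and Fosl1, 244 stayed and 74 moved past their counting interval. Ratios between blood endothelial cells that were not called changed sign, Jun within -0.09 to 0.26, Junb within -0.03 to 0.16 and Jund within -0.04 to 0.09. Outside tumor cells Fosl1 rests on 3 to 116 UMIs per class in PyMT-M and 5 to 23 in PyMT-N.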
